A study of Mus musculus with 31 samples.

Results

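The 10 genes described here take iron into the cell, store it, release it, sense it, or free it from heme: Tfrc, Trf, Steap3, Slc11a2, Fth1, Ftl1, Ncoa4, Slc40a1, Ireb2 and Hmox1. They were picked by symbol from 3 tables of RNA sequencing counts of Panc02 cells, a murine pancreatic adenocarcinoma line, and each symbol had a single row among the 55487, 56980 or 56941 genes of a table. The first table holds WT spheroids in Matrigel, a basement membrane gel, given control medium (Ctrl), M0-CM or M1-CM, with 3 samples of each. CM is the conditioned medium of macrophages grown from bone marrow, untreated for M0 and treated with IFNγ and lipopolysaccharide for M1. By the study's methods, this medium also held supernatant of L929 cells, while Ctrl was fresh medium with a matched share of serum. The second table holds cells in plain culture media as 2D or 3D cultures, WT or Cxcl5 knockout (Cxcl5-/-, made with a lentiviral CRISPR/Cas9 guide), with 3 samples in each of the 4 groups. Its 3D cells were again spheroids in gel. The third, the rescue table, holds 3D cultures in culture media of WT cells (2 samples), Cxcl5 knockout cells (2 samples), mutant Hif1a overexpression/Cxcl5 knockout cells (Hif1a OE Cxcl5-/-, 3 samples) and Myc overexpression/Cxcl5 knockout cells (Myc OE Cxcl5-/-, 3 samples). Both overexpression lines carry a retroviral vector on top of the knockout, the Hif1a is a stabilized mutant, and whether any of these lines is a clone or a pool is not given in the sources used here. The labels do not say that replicates came from separate cultures, so p-values measure the spread between these samples, which may be technical.

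Cells take up most of their iron as transferrin, which binds the transferrin receptor at the surface and is carried into endosomes, where the metal is reduced and moved to the cytosol. Iron not used at once is laid down in ferritin shells built of heavy and light chains, is freed again when ferritin is delivered to lysosomes, and leaves the cell through ferroportin. Iron regulatory proteins read the level of cytosolic iron and bind hairpins in mRNAs, called iron-responsive elements, which protects the transferrin receptor mRNA and blocks translation of ferritin and ferroportin when iron is low. Heme oxygenase opens the heme ring and returns its iron to the same pool.

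The hairpins that this control reads were looked for in the untranslated regions of mouse protein-coding transcripts (GRCm38, GENCODE M21). The pattern was a C followed by a stem of 5 base pairs, with G-T pairs allowed, that closes the loop CAGTGH (H is A, C or T). Hairpins are shown because they are the sites through which iron acts on the RNA or the translation of several members. Of 21901 genes searched, 123 held the pattern (0.562%), and 4 of the 10 members did. Tfrc held 4 copies in its 3' UTR, and Fth1, Ftl1 and Slc40a1 held 1 each in the 5' UTR. The 29 bases around each are printed 5′ to 3′ on the gene's strand, with the 6 loop bases in capitals.
Tfrc, first site, chr16:32631219-32631247, plus strand: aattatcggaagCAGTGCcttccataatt
Tfrc, second site, chr16:32631598-32631626, plus strand: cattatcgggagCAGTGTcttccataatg
Tfrc, the third site, chr16:32631663-32631691, plus strand: ctatatcggagaCAGTGAtctccatatgt
Tfrc, last site, chr16:32631710-32631738, plus strand: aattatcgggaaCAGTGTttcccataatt
Fth1, chr19:9982732-9982760, plus strand: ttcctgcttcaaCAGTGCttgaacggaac
Ftl1, chr7:45459779-45459807, minus strand: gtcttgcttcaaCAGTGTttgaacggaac
Slc40a1, chr1:45925465-45925493, minus strand: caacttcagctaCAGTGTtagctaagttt
A match is a description of these letters, and a strict stem misses hairpins with a bulge or mismatch, so the other 6 members are without this pattern and not shown to be without a hairpin.

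The total count per sample ran from 41542533 to 78498230. Levels are given in CPM (counts-per-million), with the library size scaled by TMM in edgeR. The 3 libraries labelled 3D Cxcl5-/- held more Cxcl5 (65.5, 40.9 and 45.5 CPM) than the 3D WT libraries (28.5, 24.5 and 28.0 CPM), which goes against a loss of the RNA, whereas Cxcl5 stood lower in the knockout libraries of 2D culture (32.7 to 37.4 against 45.6 to 49.1 CPM) and of the rescue table (36.6 and 40.2 against 64.2 and 67.7 CPM). A guide that shifts the reading frame need not lower the RNA, so the count does not check the knockout, and the 3D libraries are called by their label below. The study checked the knockout at the protein level, by immunoblot for CXCL5 in WT and Cxcl5-/- spheroids, which does not test the labels of these libraries. Sample 2 of M1-CM, sample 1 of the libraries labelled 3D Cxcl5-/- and sample 2 of Hif1a OE stood apart from their replicates. Replicates of Ctrl, M0-CM and 3D WT also differed widely among themselves. Each result was recomputed without every library in turn. Keratins carried the ductal epithelial markers, since Epcam was at 0 in every library outside the 3D WT cells of either table. Of the macrophage markers, Adgre1 and Itgam were at 0 in both 2D groups and in all Cxcl5-/- spheroids without an added transgene. All 7 macrophage markers together were not at 0. They summed to 28.0 to 32.4 CPM in 2D WT and, without overlap, to 48.7 to 49.3 CPM in 2D Cxcl5-/- libraries. The 5 acinar markers summed to at most 2.81 CPM. Whole cultures were sequenced, so fewer cells and less RNA per cell cannot be told apart.

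Per kb of the principal transcript, the ferritin chains led in every group. In 2D WT cells Ftl1 stood at 3826 ± 521 CPM per kb (SD, n = 3) and Fth1 at 766 ± 44.6, followed by Tfrc at 115 ± 4.92 and Ncoa4 at 23.9 ± 0.052. Ireb2 and Slc11a2 overlapped next in the order, and Hmox1 (13.1 ± 0.90), Slc40a1 (4.61 ± 0.52) and Steap3 (1.13 ± 0.12) followed. In 3D WT cells the order of the ferritins held, but Hmox1 (94.9 ± 9.05 CPM per kb) stood above Tfrc (53.9 ± 3.96) without overlap. In the libraries labelled 3D Cxcl5-/-, Tfrc (60.0 ± 2.64) followed the ferritins, and Hmox1 (39.4 ± 1.51) and Slc40a1 (38.9 ± 1.81) overlapped. Trf, which encodes the carrier transferrin itself and is made mostly by liver, was last in 10 of the 11 groups. It had 0 counts in 14 of the 21 libraries of the first 2 tables, where 0 allows a level of up to 0.0382 to 0.0639 CPM by counting error alone, and 13 counts at most in the others.

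3D culture went with less Tfrc and more Hmox1 RNA than 2D culture, both in WT and in Cxcl5-/- cells. Slc11a2 was lower and Slc40a1 higher in 3D in both genotypes. Of the storage genes, Fth1 was called lower in 3D in WT cells, and Ftl1 and Ncoa4 were called lower in Cxcl5-/- cells. Calls are genes with an adjusted p under 0.05 by edgeR's quasi-likelihood test with Benjamini-Hochberg adjustment over all 21367 genes tested in this table. Trf had too few counts to be tested. Of the other 9 members, 2 were called higher and 4 lower in 3D WT than in 2D WT cells, beside 22.2% and 22.0% of all genes. In Cxcl5-/- cells 3 were called higher and 4 lower in 3D, beside 28.7% and 28.2%. The median log2 difference of the 9 members was -0.31 in WT and 0.06 in Cxcl5-/- cells, against 0.00 and 0.11 over all genes. Comparisons in this table share libraries, so values side by side are not independent of each other.

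**Figure D1:**
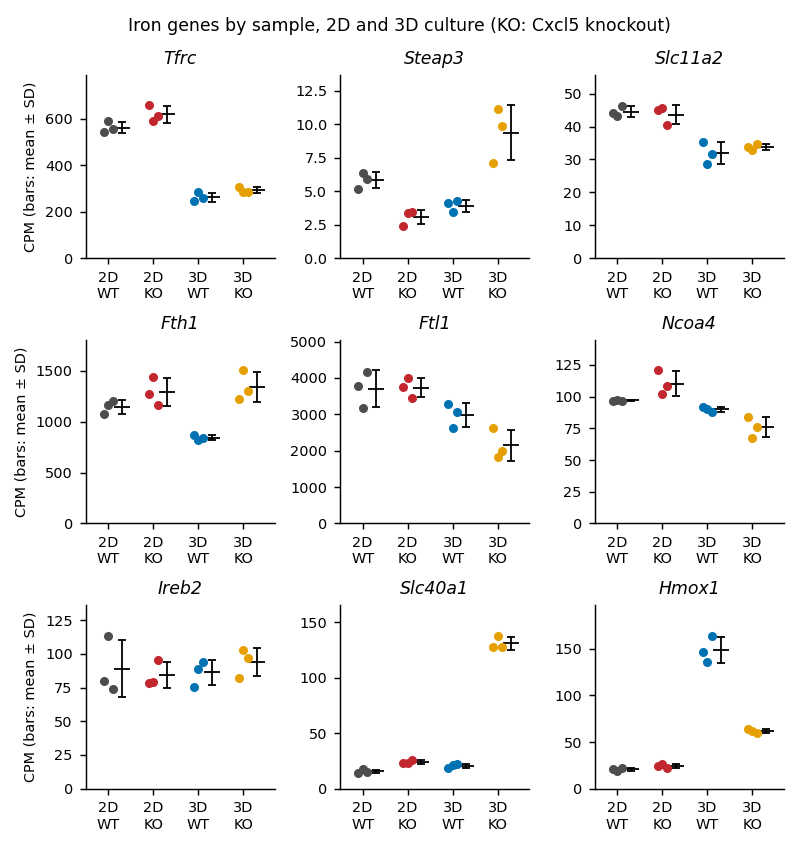
Level of each of the 9 members tested in CPM (linear axis from 0) in the 12 libraries of the 2D and 3D table, with 1 point per sample and the group mean ± SD beside the points. Tfrc sits at 543 to 659 CPM in 2D and at 248 to 308 CPM in 3D libraries, and Slc40a1 sits at 128 to 138 CPM only in the libraries labelled 3D Cxcl5-/-.

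Tfrc, the receptor that carries transferrin-bound iron into the cell (chr16:32608920-32632794), stood at 543, 589 and 554 CPM in 2D WT and at 248, 285 and 258 CPM in 3D WT cells. In Cxcl5-/- cells it stood at 659, 589 and 611 CPM in 2D and at 308, 287 and 285 CPM in 3D. Every 3D library lay below every 2D library. The level was 2.13-fold lower in 3D in WT cells (log2 difference -1.09 ± 0.08 SE, edgeR adjusted p = 1.74e-07) and 2.11-fold lower in Cxcl5-/- cells (-1.08 ± 0.08, adjusted p = 1.23e-07). The effect of the knockout in 3D minus that in 2D, the interaction, was 0.01 ± 0.12 on the log2 scale (edgeR adjusted p = 0.964). Between genotypes, Tfrc differed by 0.14 ± 0.08 in 2D (adjusted p = 0.416) and by 0.15 ± 0.08 in 3D (adjusted p = 0.14). The libraries labelled 3D Cxcl5-/- all lay above the 3D WT libraries, but the nearest samples of the groups were at the same level to 3 digits. This last difference depended on scaling, since it was called with library totals in place of TMM (0.54, adjusted p = 0.000453) and with only genes of at least 10 counts in every sample (0.25, adjusted p = 0.0209).

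Steap3 reduces iron inside the endosome so that it can leave. Its level was low, at 5.18, 6.39 and 5.91 CPM in 2D WT, 2.44, 3.38 and 3.42 CPM in 2D Cxcl5-/-, 4.09, 3.43 and 4.26 CPM in 3D WT, and the libraries labelled 3D Cxcl5-/- held 7.10, 11.1 and 9.91 CPM. The groups of WT and Cxcl5-/- cells did not overlap, but they were ordered one way in 2D and the other way in 3D. The knockout libraries were lower in 2D (-0.92 ± 0.19, edgeR adjusted p = 0.00856) and higher in 3D (1.25 ± 0.19, adjusted p = 0.000135), and the interaction was 2.17 ± 0.27 (adjusted p = 7.55e-05). From 2D to 3D, Steap3 fell in WT cells (-0.57 ± 0.19, edgeR adjusted p = 0.0268) and rose 3.04-fold in Cxcl5-/- cells (1.60 ± 0.19, adjusted p = 9.19e-06). The fall in WT cells lost its call when any library of these 2 groups other than 2D WT sample 1 was left out, with adjusted p of 0.0507 to 0.115, and the lower level in 2D Cxcl5-/- cells lost it without 2D Cxcl5-/- sample 1 (-0.76, adjusted p = 0.0568).

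Slc11a2 (DMT1) moves ferrous iron from the endosome to the cytosol. It stood at 44.1, 43.1 and 46.3 CPM in 2D WT and at 35.3, 28.7 and 31.7 CPM in 3D WT cells. Its level in Cxcl5-/- cells stood at 44.9, 45.6 and 40.4 CPM in 2D and at 33.8, 33.0 and 34.8 CPM in 3D. As for Tfrc, every 3D library was below every 2D library. The fall was 1.39-fold in WT (log2 difference -0.48 ± 0.09, edgeR adjusted p = 0.000473) and 1.29-fold in Cxcl5-/- cells (-0.37 ± 0.09, adjusted p = 0.00251), and the second was not called with library totals (-0.21, adjusted p = 0.0641). The genotypes differed by 0.08 ± 0.09 in 3D (edgeR adjusted p = 0.462). With library totals this was 0.48 (adjusted p = 0.000994).

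Of the storage genes, Fth1, the ferritin heavy chain that oxidizes iron as it enters the shell (chr19:9980598-9985098), stood at 1072, 1160 and 1202 CPM in 2D WT and at 865, 819 and 839 CPM in 3D WT cells. The Cxcl5-/- cells held it at 1269, 1433 and 1163 CPM in 2D and at 1222, 1502 and 1298 CPM in 3D. The 3D WT libraries lay below all others, and the 2D and 3D libraries of Cxcl5-/- cells overlapped. Fth1 fell 1.36-fold from 2D to 3D in WT cells (-0.44 ± 0.10 on the log2 scale, edgeR adjusted p = 0.00197), while the difference in Cxcl5-/- cells was 0.06 ± 0.10 (adjusted p = 0.633). In 3D the knockout libraries were 1.59-fold higher (0.67 ± 0.10, edgeR adjusted p = 8.36e-05), and the interaction was 0.50 ± 0.14 (adjusted p = 0.0156). The interaction lost its call without 2D WT sample 2 (0.45, adjusted p = 0.0513) or 2D WT sample 3 (0.41, adjusted p = 0.0586).

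Ftl1, the ferritin light chain that nucleates the iron core (chr7:45457944-45459884), went the other way between the genotypes within 3D. It stood at 3765, 3171 and 4174 CPM in 2D WT and at 3270, 2631 and 3071 CPM in 3D WT cells, which overlap. In Cxcl5-/- cells it stood at 3760, 3987 and 3458 CPM in 2D and at 2612, 1826 and 1992 CPM in 3D, which do not. The fall from 2D to 3D was 1.74-fold in Cxcl5-/- cells (-0.80 ± 0.14 on the log2 scale, edgeR adjusted p = 0.000213), and the difference in WT cells was -0.31 ± 0.14 (adjusted p = 0.0832). In 3D, Ftl1 was 1.40-fold lower in the knockout libraries (-0.48 ± 0.14, edgeR adjusted p = 0.011), so the 2 ferritin chains were called in opposite directions in the same libraries. The call on Ftl1 ended with library totals (-0.11, adjusted p = 0.424), with no filter on low counts (-0.39, adjusted p = 0.0513) and without sample 2 of the libraries labelled 3D Cxcl5-/- (-0.34, adjusted p = 0.0945), and the difference in WT cells gained a call with library totals (-0.53, adjusted p = 0.000745) or without 2D WT sample 2 (-0.39, adjusted p = 0.0471). The Ftl1 interaction of -0.49 ± 0.19 (edgeR adjusted p = 0.0742) was called without 2D WT sample 3 (-0.64, adjusted p = 0.0348), 3D WT sample 2 (-0.62, adjusted p = 0.0387) or sample 1 of the libraries labelled 3D Cxcl5-/- (-0.71, adjusted p = 0.00465). Processed copies of Ftl1 can split its reads: Ftl1-ps1 held 2.78 to 8.54% and Ftl2-ps 0.942 to 1.54% of its count over the 3 tables.

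Ncoa4, the cargo receptor that delivers ferritin to lysosomes, ranged only from 67.6 to 121 CPM over the 12 libraries. It stood at 97.0, 97.3 and 96.9 CPM in 2D WT, 91.9, 90.2 and 87.7 CPM in 3D WT, 121, 102 and 108 CPM in 2D Cxcl5-/-, and the libraries labelled 3D Cxcl5-/- held 84.0, 67.6 and 76.4 CPM. Both genotypes were lower in 3D without overlap, and the fall was called in Cxcl5-/- cells (-0.54 ± 0.09, edgeR adjusted p = 0.000171) and not in WT cells (-0.11 ± 0.09, adjusted p = 0.346), where library totals gave a call (-0.33, adjusted p = 0.00482). The interaction of -0.43 ± 0.13 (edgeR adjusted p = 0.0232) lost its call without 2D Cxcl5-/- sample 1 (-0.31, adjusted p = 0.104), without sample 2 of the libraries labelled 3D Cxcl5-/- (-0.33, adjusted p = 0.0771), with library totals (-0.07, adjusted p = 0.733) and with no filter on low counts (-0.34, adjusted p = 0.173). The lower Ncoa4 of the knockout in 3D (-0.24 ± 0.09, edgeR adjusted p = 0.0404) is not a stable call: it ended without sample 2 or 3 of the knockout or sample 1 or 2 of the WT group (adjusted p of 0.0504 to 0.316) and under 4 other settings (0.0515 to 0.328), and with library totals the value was 0.14 (adjusted p = 0.193).

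Slc40a1, ferroportin, the exporter of iron (chr1:45908068-45926523), had the largest genotype difference of the members in 3D. It stood at 14.0, 17.4 and 15.2 CPM in 2D WT, 23.4, 23.3 and 26.2 CPM in 2D Cxcl5-/-, and 18.5, 20.9 and 22.4 CPM in 3D WT cells, but the libraries labelled 3D Cxcl5-/- held 128, 138 and 128 CPM. The last group lay far above the others, and the 2D groups did not overlap each other. The knockout libraries were 1.56-fold higher in 2D (0.64 ± 0.10, edgeR adjusted p = 0.000885) and 6.36-fold higher in 3D (2.67 ± 0.10, adjusted p = 8.87e-10), with an interaction of 2.02 ± 0.14 (adjusted p = 6.63e-07). From 2D to 3D, Slc40a1 rose 5.39-fold in Cxcl5-/- cells (2.43 ± 0.10, edgeR adjusted p = 6.84e-10) and 1.33-fold in WT cells (0.41 ± 0.10, adjusted p = 0.00415), where library totals ended the call (0.19, adjusted p = 0.236).

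Ireb2, the iron regulatory protein whose amount follows iron through degradation of the protein, did not pass the test in any of these comparisons. Its RNA ranged from 73.8 to 114 CPM, with every pair of groups overlapping and edgeR adjusted p from 0.402 to 0.884. With library totals the higher value in the libraries labelled 3D Cxcl5-/- was called (0.52, adjusted p = 0.0291).

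Hmox1, heme oxygenase 1, the inducible enzyme that breaks heme into biliverdin, carbon monoxide and iron (chr8:75093621-75100589), had the largest difference between 2D and 3D in WT cells. It stood at 20.8, 19.1 and 21.9 CPM in 2D WT and at 147, 136 and 164 CPM in 3D WT cells. In Cxcl5-/- cells it stood at 24.2, 26.1 and 21.9 CPM in 2D and at 64.4, 61.5 and 59.7 CPM in 3D. The 3D groups lay above the 2D groups in both genotypes, and the libraries labelled 3D Cxcl5-/- were in between. Hmox1 rose 7.24-fold in WT cells (2.86 ± 0.10 on the log2 scale, edgeR adjusted p = 1.66e-10) and 2.57-fold in Cxcl5-/- cells (1.36 ± 0.09, adjusted p = 3.71e-08). In 3D it was 2.41-fold lower in the knockout libraries (-1.27 ± 0.09, edgeR adjusted p = 1.39e-07), with an interaction of -1.49 ± 0.13 (adjusted p = 3.76e-06), while in 2D the genotypes differed by 0.23 ± 0.09 (adjusted p = 0.19).

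Put together by comparison, of the 9 members tested, Slc40a1 was called higher and Steap3 lower in the knockout in 2D, beside 3.86% and 3.17% of all genes. The Steap3 call ended without 2D Cxcl5-/- sample 1 (edgeR adjusted p = 0.0568). In 3D, Fth1, Slc40a1 and Steap3 were called higher and Ftl1, Ncoa4 and Hmox1 lower, beside 19.7% and 25.3%. The interaction was called for Fth1, Slc40a1 and Steap3 upward and for Ncoa4 and Hmox1 downward, beside 11.1% and 16.1%. Scaling matters in 3D: the TMM factors were 0.82 to 0.91 in 3D WT and 1.01 to 1.23 in the knockout libraries, and under library totals the median over all genes went from -0.04 to 0.35 and the calls from 4218 higher and 5397 lower to 7671 and 2445. Relative to that shift the calls on Fth1, Slc40a1, Steap3 and Hmox1 kept their direction. Cell markers moved with genotype too. The summed ductal markers were 839 to 1084 CPM in 3D WT and 190 to 222 CPM in the knockout libraries, and 5 mesenchymal markers summed to 3651 to 4203 and to 864 to 1000 CPM. The macrophage markers, at 42.2 to 46.5 and 43.3 to 63.2 CPM, overlapped. The part of these differences in the member results was not tested.

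**Figure D2:**
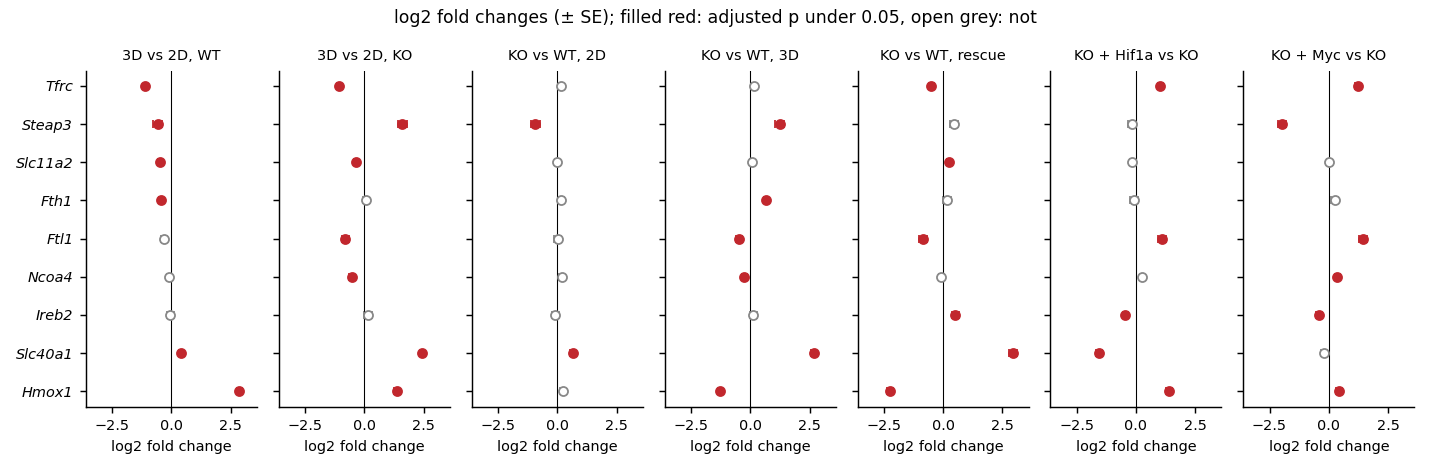
Log2 fold change of 9 members (Trf left out), with its SE as a bar, in 7 comparisons of the 2D and 3D table and of the rescue table by edgeR; filled red points are calls at an adjusted p under 0.05 and open grey points are not. Slc40a1 lies at 2.67 and 2.94 and Hmox1 at -1.27 and -2.24 for the knockout against WT in 3D in the 2 tables.

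The rescue table asks whether Hif1a or Myc, overexpressed in Cxcl5-/- spheroids, moves genes that the knockout had changed. Across the 3D groups, the knockout had more Slc40a1 and less Hmox1, Ftl1 and Tfrc than WT, Hif1a OE Cxcl5-/- libraries lay towards or beyond WT in all 4 genes, and Myc OE Cxcl5-/- libraries passed WT in Ftl1 and Tfrc. Ireb2 and Slc11a2 were called higher in the knockout too. Ireb2 was called lower than in the knockout with either transgene, and Slc11a2 with neither. The same knockout libraries serve in all these comparisons, so a move back towards WT is not independent of the knockout difference. Of the 10 members tested, 3 were called higher and 3 lower in Cxcl5-/- than in WT, beside 17.6% and 24.3% of 28730 genes. Against Cxcl5-/- alone, 3 were called higher and 2 lower in Hif1a OE, beside 20.5% and 15.0%, and 4 higher and 2 lower in Myc OE, beside 21.6% and 18.0%. The median log2 difference of the members was 0.16, 0.08 and 0.29 in these comparisons, against -0.30, 0.16 and 0.11 over all genes. Hif1a itself stood at 304 to 324 CPM in WT, 133 and 144 CPM in Cxcl5-/-, 243 to 296 CPM in Hif1a OE and 241 to 271 CPM in Myc OE libraries, and Myc at 397 to 548 CPM in Myc OE against 20.0 and 22.3 CPM in Cxcl5-/- libraries. Myc stood at 47.7 ± 2.28 CPM (SD) in WT and 25.1 ± 1.92 CPM in Hif1a OE libraries, so its level in Myc OE libraries was far above that of WT. A vector without an insert was not part of the groups.

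**Figure D3:**
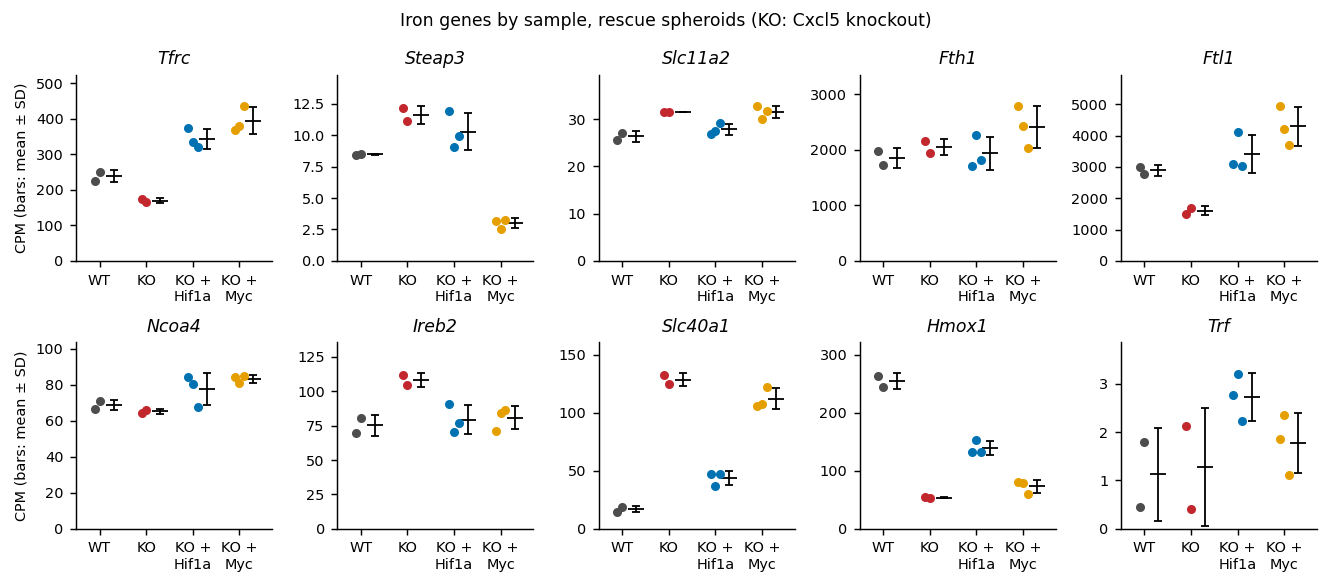
Level of each of the 10 members in CPM (linear axis from 0) in the 10 rescue libraries, with 1 point per sample and the group mean ± SD beside the points. Hmox1 sits at 244 and 264 CPM in WT, 53.0 and 54.3 CPM in Cxcl5-/-, 132 to 152 CPM in Hif1a OE and 60.2 to 80.1 CPM in Myc OE libraries.

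Tfrc stood at 226 and 250 CPM in WT, 174 and 166 CPM in Cxcl5-/-, 375, 335 and 320 CPM in Hif1a OE Cxcl5-/-, and 368, 381 and 438 CPM in Myc OE Cxcl5-/- libraries. Both overexpression groups lay above WT as well as above the knockout. Tfrc was 2.02-fold higher with Hif1a (log2 difference 1.01 ± 0.11, edgeR adjusted p = 2.31e-05) and 2.33-fold higher with Myc (1.22 ± 0.11, adjusted p = 4.66e-06) than in Cxcl5-/- alone, and the overexpression lines differed from each other by 0.21 ± 0.09 (adjusted p = 0.156). The lower Tfrc of Cxcl5-/- against WT (-0.49 ± 0.11, edgeR adjusted p = 0.00543) lost its call without knockout sample 2 (-0.45, adjusted p = 0.0574) or WT sample 2 (-0.41, adjusted p = 0.0546), and is opposite in sign to the difference of 0.15 in the other 3D libraries.

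Trf was detected here at 20 to 183 counts, with 0.441 and 1.80 CPM in WT, 2.14 and 0.406 CPM in Cxcl5-/-, 2.77, 3.20 and 2.22 CPM in Hif1a OE, and 1.86, 2.35 and 1.11 CPM in Myc OE libraries. The samples within the WT and the knockout pair differed more than the groups did, and no comparison of Trf was called by edgeR (adjusted p of 0.22 for Hif1a OE). Without knockout sample 1 that comparison was called (log2 difference 2.76, adjusted p = 0.0259), so it rested on the knockout pair.

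Steap3 had another pattern. It stood at 8.45 and 8.50 CPM in WT, 12.2 and 11.2 CPM in Cxcl5-/-, 11.96, 9.03 and 9.92 CPM in Hif1a OE, and 3.19, 2.52 and 3.26 CPM in Myc OE libraries. The Myc OE group lay below all others. It was 3.89-fold lower than Cxcl5-/- alone (-1.96 ± 0.16, edgeR adjusted p = 3.56e-06) and 3.44-fold lower than Hif1a OE (-1.78 ± 0.15, adjusted p = 1.17e-05). The difference between Cxcl5-/- and WT was 0.46 ± 0.18 (edgeR adjusted p = 0.0573) and was called with only the groups compared (0.43, adjusted p = 0.0158). With Hif1a the difference from Cxcl5-/- alone was -0.18 ± 0.16 (adjusted p = 0.419).

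Slc11a2 stood at 25.5 and 27.2 CPM in WT, 31.4 and 31.5 CPM in Cxcl5-/-, 26.8 to 29.2 CPM in Hif1a OE and 30.1 to 32.7 CPM in Myc OE libraries. Its call in Cxcl5-/- against WT (0.26 ± 0.09, edgeR adjusted p = 0.0415) ended under 6 of the 8 other settings (adjusted p of 0.0537 to 0.179) and without any of the 4 libraries (0.113 to 0.257). With Hif1a, Slc11a2 was called lower than in Cxcl5-/- alone by the DESeq2 Wald test (-0.22, adjusted p = 0.0344), with library totals (-0.40, adjusted p = 0.0114) and with at least 10 counts in every sample (-0.24, adjusted p = 0.0323), and with Myc under library totals (-0.33, adjusted p = 0.024), and neither was called with edgeR, TMM and the filter by group. Ireb2 stood at 69.9 and 80.4 CPM in WT and at 112 and 104 CPM in Cxcl5-/-, against 70.3 to 90.6 CPM in Hif1a OE and 71.3 to 86.8 CPM in Myc OE libraries. The knockout pair lay above all others, and Ireb2 was called higher against WT (0.52 ± 0.13, edgeR adjusted p = 0.0098) and lower in Hif1a OE (-0.44 ± 0.12, adjusted p = 0.0134) and Myc OE libraries (-0.42 ± 0.12, adjusted p = 0.0164) than in Cxcl5-/- alone. The calls on Ireb2 ended without knockout sample 1 in all 3 comparisons (adjusted p of 0.0687, 0.122 and 0.136), without WT sample 1 in the first (0.0869), and without knockout sample 2 (0.0545) or Myc OE sample 1 (0.0573) in the last.

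The ferritin chains again differed from each other. Ftl1 stood at 3010 and 2765 CPM in WT, 1493 and 1695 CPM in Cxcl5-/-, 3083, 4112 and 3018 CPM in Hif1a OE, and 4959, 4224 and 3708 CPM in Myc OE libraries. The knockout pair was below every other library. Ftl1 was 1.81-fold lower in Cxcl5-/- than in WT (-0.86 ± 0.18, edgeR adjusted p = 0.00272), and 2.14-fold higher with Hif1a (1.09 ± 0.17, adjusted p = 0.000324) and 2.70-fold higher with Myc (1.43 ± 0.17, adjusted p = 4.02e-05) than in Cxcl5-/- alone. Fth1 stood at 1982 and 1724 CPM in WT, 2157 and 1944 CPM in Cxcl5-/-, 1711 to 2274 CPM in Hif1a OE and 2028 to 2786 CPM in Myc OE libraries, all groups overlapping their neighbours. None of the Fth1 differences was called by edgeR (adjusted p of 0.508, 0.719 and 0.25 in the same order), and the higher Fth1 of the knockout seen in the other 3D libraries was 0.15 ± 0.17 here. Without Hif1a OE sample 2, Myc OE libraries were called higher than Hif1a OE libraries in Fth1 (0.45, adjusted p = 0.0321) and in Ftl1 (0.50, adjusted p = 0.0154). Ncoa4 stood at 66.7 and 70.6 CPM in WT, 64.3 and 66.1 CPM in Cxcl5-/-, 67.6 to 84.4 CPM in Hif1a OE and 80.8 to 84.9 CPM in Myc OE libraries. It was called higher with Myc (0.35 ± 0.10, edgeR adjusted p = 0.0123), but not with library totals (0.02, adjusted p = 0.942) or without either knockout sample (adjusted p of 0.087 without the first and 0.0617 without the second), and with Hif1a it gained a call without Hif1a OE sample 3 (0.34, adjusted p = 0.00573) and with the replicate number as a block (0.28, adjusted p = 0.0464).

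Slc40a1 stood at 14.8 and 18.7 CPM in WT and at 132 and 124 CPM in Cxcl5-/-, as in the other 3D libraries, and at 47.0, 36.7 and 47.2 CPM in Hif1a OE and 106, 107 and 122 CPM in Myc OE libraries. The Hif1a OE group lay between WT and knockout, apart from both, and the Myc OE group lay just under the knockout. The level was 7.66-fold higher in Cxcl5-/- than in WT (log2 difference 2.94 ± 0.15, edgeR adjusted p = 2.1e-07) and 2.94-fold lower with Hif1a than in Cxcl5-/- alone (-1.56 ± 0.13, adjusted p = 4.67e-06). With Myc the difference was -0.20 ± 0.13 (edgeR adjusted p = 0.245), and Myc OE stood 2.57-fold above Hif1a OE libraries (1.36 ± 0.12, adjusted p = 1.28e-05). With library totals the Myc difference was called as well (-0.53, adjusted p = 0.0279).

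Hmox1 stood at 264 and 244 CPM in WT, 54.3 and 53.0 CPM in Cxcl5-/-, 132, 152 and 133 CPM in Hif1a OE, and 80.1, 78.1 and 60.2 CPM in Myc OE libraries. The 4 groups did not overlap. Hmox1 was 4.73-fold lower in Cxcl5-/- than in WT (-2.24 ± 0.14, edgeR adjusted p = 5.63e-07) and 2.59-fold higher with Hif1a than in Cxcl5-/- alone (1.38 ± 0.13, adjusted p = 9.61e-06). With Myc it was 1.36-fold higher (0.44 ± 0.12, edgeR adjusted p = 0.0138), a call that ended with library totals (0.10, adjusted p = 0.461) and without knockout sample 1 (0.47, adjusted p = 0.0624) or 2 (0.43, adjusted p = 0.0864). Hmox1 was 1.91-fold lower in Myc OE than in Hif1a OE libraries (-0.93 ± 0.11, edgeR adjusted p = 0.000111). Between the overexpression lines Slc40a1 was the member called higher with Myc, and Steap3 and Hmox1 were called lower, beside 9.54% and 9.73% of all genes. In these groups the summed ductal markers were 823 to 865 CPM in WT, 258 to 272 CPM in Cxcl5-/-, 687 to 820 CPM in Hif1a OE and 244 to 287 CPM in Myc OE libraries. In the same order of groups the 5 mesenchymal markers summed to 3391 to 3418, 814 to 828, 865 to 966 and 1139 to 1196 CPM, and the 7 macrophage markers to 43.2 to 43.3, 34.5 to 34.7, 44.9 to 63.2 and 59.8 to 76.7 CPM. The part of these markers in the member results was not tested.

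In the conditioned media table, which asks what macrophage medium changes in WT spheroids, no member passed the test. edgeR called 3 of 19207 genes higher with M1-CM than with Ctrl (0.0156%), 3 higher with M1-CM than with M0-CM (0.0156%) and 0 with M0-CM against Ctrl (0%). In the same order the DESeq2 Wald test called 97, 32 and 17 genes, and 903, 498 and 569 genes had an unadjusted p under 0.05 by edgeR. No gene was called lower by edgeR in any of these comparisons (0%). At an unadjusted p under 0.05 the members numbered 3, 2 and 1 of 9 in the same order, and the DESeq2 Wald test called 0 members in each. Sample 2 of M1-CM stood apart in several members, and calls over all genes were few enough to hang on single libraries: without M1-CM sample 3 they were 5 and 6 in the M1-CM comparisons, without Ctrl sample 3 the first was 1, and without any other M1-CM sample or without M0-CM sample 2 or 3 the second was 1.

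**Figure D4:**
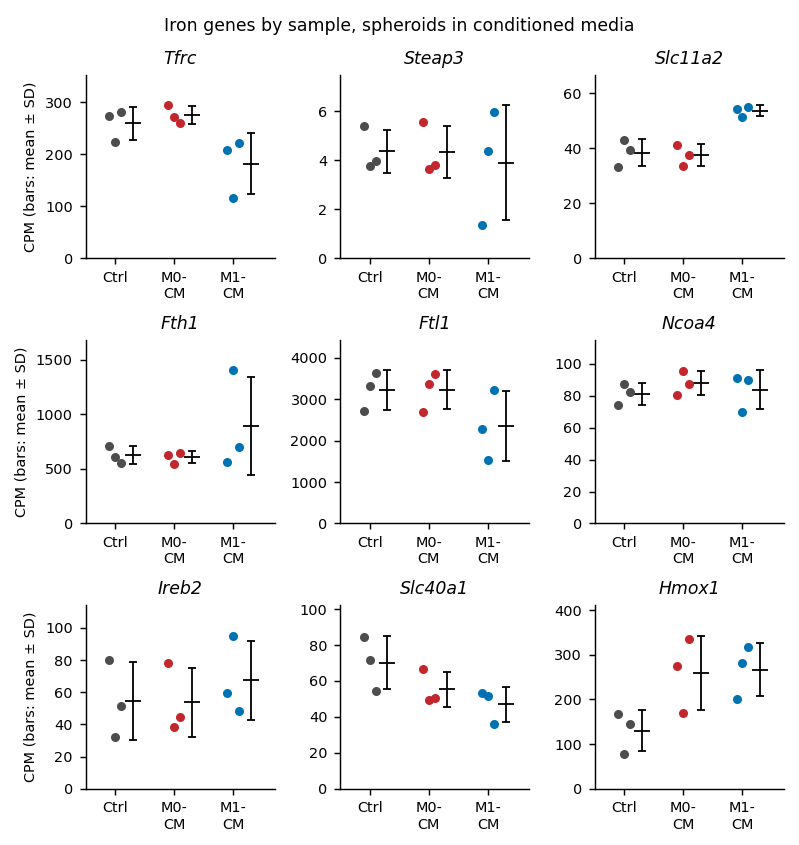
Level of each of the 9 members tested in CPM (linear axis from 0) in the 9 libraries of the conditioned media table, with 1 point per sample and the group mean ± SD beside the points. Hmox1 sits at 78.6 to 167 CPM in Ctrl and at 169 to 335 CPM in both conditioned media, and sample 2 of M1-CM is highest in Fth1 (1404 CPM) and lowest in Tfrc (115 CPM).

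Hmox1 stood at 167, 78.6 and 146 CPM in Ctrl, 275, 169 and 335 CPM with M0-CM, and 201, 281 and 318 CPM with M1-CM. Every library with conditioned medium lay above every Ctrl library. The study's methods name L929 supernatant for both conditioned media and not for Ctrl, and its part in Hmox1 was not tested. The log2 difference from Ctrl was 0.99 ± 0.32 with M0-CM (edgeR adjusted p = 1) and 1.03 ± 0.32 with M1-CM (adjusted p = 0.956), and M1-CM differed from M0-CM by 0.04 ± 0.32 (adjusted p = 0.996). Slc11a2 stood at 33.2, 42.9 and 39.2 CPM in Ctrl, 41.3, 33.5 and 37.7 CPM with M0-CM, and 54.5, 51.4 and 55.2 CPM with M1-CM, the last above all others. The difference of M1-CM from Ctrl was 0.48 ± 0.15 (edgeR adjusted p = 0.922).

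Tfrc stood at 273, 223 and 280 CPM in Ctrl, 294, 272 and 260 CPM with M0-CM, and 208, 115 and 222 CPM with M1-CM. The M1-CM libraries lay below all others, by 0.51 ± 0.23 on the log2 scale against Ctrl (edgeR adjusted p = 0.965). Slc40a1 was likewise lowest with M1-CM, at 53.3, 51.5 and 35.9 CPM against 84.6, 71.5 and 54.7 CPM in Ctrl (-0.58 ± 0.22, adjusted p = 0.965), while M0-CM libraries at 66.6, 49.2 and 50.3 CPM overlapped both. Ctrl spheroids here held more Slc40a1 than the 3D WT libraries of the other tables, whose levels were set in tables scaled apart and are given side by side without a test. The share of serum in the medium also differed between Ctrl and those 3D WT cultures.

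Fth1 stood at 713, 611 and 554 CPM in Ctrl, 627, 546 and 650 CPM with M0-CM, and 564, 1404 and 704 CPM with M1-CM. Ftl1 stood at 2703, 3319 and 3636 CPM in Ctrl, 2700, 3369 and 3606 CPM with M0-CM, and 2288, 1539 and 3231 CPM with M1-CM. Both overlapped, and sample 2 of M1-CM was the highest of all in Fth1 and the lowest in Ftl1. The other tested members, Steap3 (1.34 to 5.97 CPM), Ireb2 (31.9 to 95.2 CPM) and Ncoa4 (69.5 to 95.3 CPM), overlapped in all 3 groups.

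Tfrc and Fth1 carry iron-responsive elements, those of Tfrc acting on the RNA and that of Fth1 on translation. A ratio of their counts is therefore no measure of opposite control by iron. Counts of both genes were set against each other within each library, which needs no scaling between libraries. The Tfrc count was 46.1 to 50.8% of the Fth1 count in 2D WT, 41.1 to 52.5% in 2D Cxcl5-/-, 28.7 to 34.8% in 3D WT and 19.1 to 25.2% in the libraries labelled 3D Cxcl5-/-. Both 3D groups lay below both 2D groups, and they did not overlap each other. The mean log2 ratio was lower in 3D by 0.65 in WT (-1.68 ± 0.14 against -1.03 ± 0.08, SD, n = 3) and by 1.13 in Cxcl5-/- cells (-2.19 ± 0.20 against -1.05 ± 0.20). Each gave p = 0.1 in a two-sided exact permutation test, the smallest that 3 against 3 samples allow, so no such comparison can pass 0.05. The knockout libraries differed from WT by -0.51 in 3D (exact permutation p = 0.1) and by -0.03 in 2D (p = 1).

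**Figure D5:**
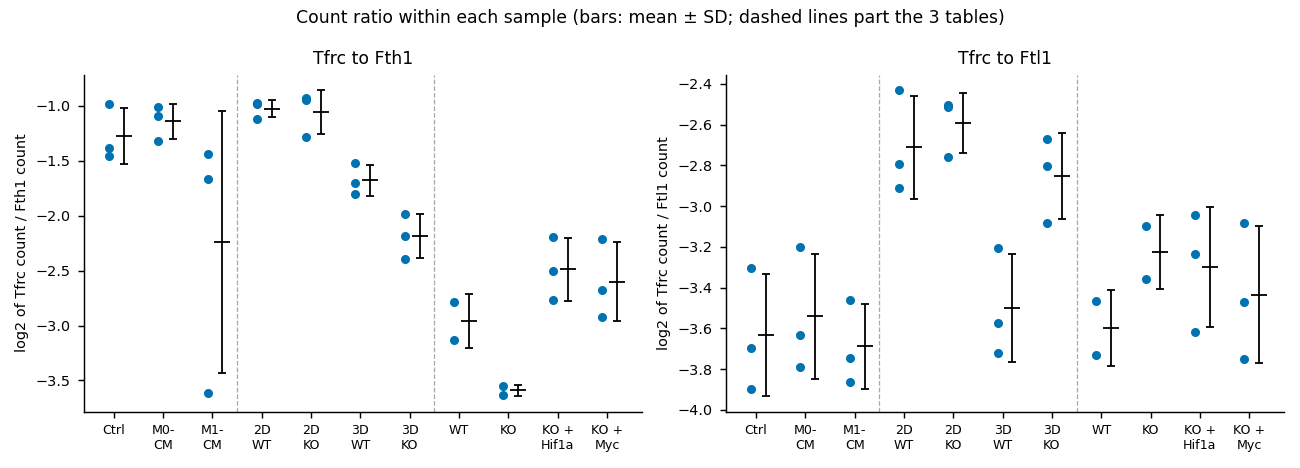
Log2 ratio of the Tfrc count to the Fth1 count (left) and to the Ftl1 count (right) in each library, with 1 point per sample and the group mean ± SD beside the points, for all 11 groups of the 3 tables. For Fth1 the 2D groups lie highest, at means of -1.03 and -1.05, and rescue Cxcl5-/- libraries lie lowest, at -3.59.

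In the rescue libraries the Tfrc count was 11.4 and 14.5% of the Fth1 count in WT, 8.08 and 8.51% in Cxcl5-/-, 14.7 to 21.9% in Hif1a OE and 13.2 to 21.6% in Myc OE libraries. Against Cxcl5-/- the mean log2 ratio was higher by 1.10 with Hif1a and by 0.99 with Myc (two-sided exact permutation p = 0.1 in each, the smallest possible), and Cxcl5-/- was lower than WT by 0.64 (p = 0.333, the smallest possible). With M1-CM the percentages were 36.8, 8.18 and 31.5%, against 36.5 to 50.6% in Ctrl and 40.1 to 49.7% with M0-CM. The difference of M1-CM from Ctrl, -0.97 (exact permutation p = 0.2), was -0.28 without sample 2 of M1-CM, and that from M0-CM, -1.10 (p = 0.1), was -0.41 without it. The choice of chain decides the genotype results: with Ftl1 as the denominator the knockout was higher than WT by 0.65 in 3D and by 0.37 in the rescue libraries, and the overexpression lines were lower than the knockout by 0.07 and 0.21, whereas the mean of 3D was below that of 2D by 0.79 in WT (exact permutation p = 0.1) and, with groups that overlap, by 0.26 in Cxcl5-/- cells (p = 0.2).

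Around the members, 77 further genes of iron and heme handling were followed in 7 lists, of which 75 were found by symbol. From 2D to 3D, 18 were called higher and 24 lower of 68 tested in WT, beside 22.2% and 22.0% of all genes, and 15 and 33 in Cxcl5-/- cells, beside 28.7% and 28.2%. With library totals these were 12 and 34 in WT, and 17 and 31 in Cxcl5-/- cells. Among all 21367 genes, that scaling gave 3563 higher and 6712 lower in WT, and 7039 and 4943 in Cxcl5-/- cells. Cp, ceruloplasmin, which oxidizes iron as it leaves the cell, rose from 476 ± 20.1 to 1496 ± 111 CPM in WT (log2 difference 1.65 ± 0.08, edgeR adjusted p = 3.29e-09) and from 511 ± 18.4 to 1684 ± 81.1 CPM in Cxcl5-/- cells (1.72 ± 0.08, adjusted p = 1.53e-09). Hp, haptoglobin, which binds free hemoglobin, rose in WT cells only from 0.269 to 1.19 CPM but in Cxcl5-/- cells from 0.333 to 27.7 CPM (6.37 ± 0.36, adjusted p = 7.26e-09). Slc25a38, a mitochondrial glycine carrier used in heme synthesis, fell in WT cells (-0.94 ± 0.17, adjusted p = 0.000425), as did Bmp6, an inducer of hepcidin (-1.10 ± 0.24, adjusted p = 0.00218). In Cxcl5-/- cells Fdx2, a ferredoxin of iron-sulfur cluster assembly (-1.53 ± 0.23, adjusted p = 6.89e-05), and the metalloreductase Steap1 (-1.28 ± 0.11, adjusted p = 4.29e-07) fell.

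Of the 14 genes of mitochondrial iron and iron-sulfur clusters, 2 were called higher and 6 lower in 3D in WT (22.2% and 22.0% of all genes), and 0 and 11 in Cxcl5-/- cells (28.7% and 28.2%). For the knockout against WT the list gave 0 higher and 8 lower in 3D (19.7% and 25.3%) and 0 and 7 in the rescue libraries (17.6% and 24.3%). Against Cxcl5-/- alone it gave 11 higher and 0 lower with Hif1a (20.5% and 15.0%) and 13 and 1 with Myc (21.6% and 18.0%). Scaling set part of this. With library totals the list gave 0 higher and 9 lower in 3D in WT, 0 and 10 in Cxcl5-/- cells, 2 and 2 for the knockout in 3D, 0 and 6 for it in the rescue libraries, 5 and 2 with Hif1a, and 8 and 1 with Myc. Among all 21367 genes that scaling gave 3563 and 6712, 7039 and 4943, and 7671 and 2445 in the first comparisons. Among the 28730 genes of the rescue libraries it gave 5017 and 6524, 4335 and 5604, and 4271 and 7482. The 12 heme synthesis genes gave 3 higher and 4 lower for the knockout in 3D (19.7% and 25.3%). They gave 6 and 3 with Hif1a (20.5% and 15.0%) and 8 and 2 with Myc (21.6% and 18.0%). With library totals these were 6 and 1, 6 and 3, and 6 and 3. For the knockout in the rescue libraries, 1 was called higher and 2 lower of 11 (17.6% and 24.3%), and the remaining gene, Alas2, was called higher.

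Over all 7 lists the knockout gave 5 higher and 4 lower of 68 in 2D (3.86% and 3.17% of all genes), 11 and 27 in 3D (19.7% and 25.3%), and 15 and 28 of 72 in the rescue libraries (17.6% and 24.3%). With library totals these were 5 and 3, 25 and 10, and 16 and 23. Among all genes that scaling gave 788 and 530 of 21367, 7671 and 2445 of 21367, and 5017 and 6524 of 28730. Scara5, a receptor that takes up ferritin, was higher in the knockout in 2D (72.9 ± 6.13 against 14.2 ± 1.41 CPM, 2.36 ± 0.11 on the log2 scale, edgeR adjusted p = 2.68e-08), in 3D (104 ± 12.2 against 20.5 ± 1.48 CPM, 2.34 ± 0.11, adjusted p = 3.98e-09) and in the rescue libraries (117 ± 3.80 against 21.9 ± 0.267 CPM, 2.41 ± 0.24, adjusted p = 1.42e-05). Heph, a ferroxidase that works beside ferroportin, was higher in 2D (26.4 ± 2.12 against 11.3 ± 0.229 CPM, adjusted p = 1.29e-06) and in the rescue libraries (49.1 ± 3.56 against 11.3 ± 1.38 CPM, adjusted p = 7.02e-07). Maff, a small Maf protein that pairs with the regulators of the Hmox1 gene, was lower in 3D (6.70 ± 1.15 against 35.7 ± 2.93 CPM, -2.41 ± 0.13, adjusted p = 1.18e-08) and in the rescue libraries (5.49 ± 1.36 against 44.5 ± 0.729 CPM, -3.02 ± 0.19, adjusted p = 5.9e-07), and by less in 2D (-0.61 ± 0.12, adjusted p = 0.00775). Bmp6 was lower in the knockout in 2D (0.238 against 3.66 CPM) and in 3D (0.324 against 1.71 CPM), Hp was higher in 3D (27.7 against 1.19 CPM), and Hephl1, another ferroxidase, was lower in the rescue libraries (0.166 against 8.50 CPM).

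Against Cxcl5-/- alone, 35 of the 72 were called higher and 13 lower with Hif1a (20.5% and 15.0% of all genes), and 40 and 13 with Myc (21.6% and 18.0%), which became 22 and 16, and 24 and 21, with library totals. Among all 28730 genes that scaling gave 4335 higher and 5604 lower with Hif1a, and 4271 and 7482 with Myc. Lrp1, a receptor that clears hemopexin with its heme, stood at 2143 ± 8.05 CPM in Cxcl5-/-, 612 ± 148 CPM in Hif1a OE (-1.81 ± 0.16, edgeR adjusted p = 6.15e-06) and 443 ± 12.9 CPM in Myc OE libraries (-2.28 ± 0.16, adjusted p = 9.88e-07). Scara5 was lower with Hif1a (26.5 ± 9.28 CPM, -2.14 ± 0.20, adjusted p = 1.16e-05) and Heph lower with Myc (20.7 ± 1.14 CPM, -1.25 ± 0.12, adjusted p = 6.9e-06). Steap1 (43.4 against 13.0 CPM) and Hephl1 (3.26 against 0.166 CPM) were higher with Hif1a, and Hp (104 ± 21.7 against 6.35 ± 1.96 CPM) and Tfr2, the second transferrin receptor (2.30 against 0.176 CPM), were higher with Myc. Between the overexpression lines 15 were called higher and 11 lower with Myc (9.54% and 9.73% of all genes, and 12 and 14 with library totals), with Hp (104 against 9.42 CPM) and Scara5 (73.1 against 26.5 CPM) higher and Hephl1 (0.598 against 3.26 CPM) and Mafk (11.8 against 22.9 CPM) lower. Among all genes, library totals gave 1982 higher and 3504 lower with Myc than with Hif1a. In the conditioned media Lcn2, lipocalin 2, which binds iron-carrying siderophores, was the only gene of the 7 lists that edgeR called. It had 2728, 3617 and 1433 counts with M1-CM, against 0, 11 and 0 counts in Ctrl and 29, 10 and 27 counts with M0-CM (edgeR adjusted p = 0.00682 and 0.026), in spheroids whose macrophage markers summed to 34.4 to 55.7 CPM with M1-CM or Ctrl. The study's own list of changed genes also holds Hp, as higher with M1-CM than with M0-CM. A missing edgeR call therefore does not show that the other genes of the lists were unchanged.

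Over the 12 libraries of the 2D and 3D table, the genes whose log2 level followed that of Tfrc most closely among 10692 were Ola1 (Pearson r = 0.9927), Noc3l (r = 0.9923) and Fam107b (r = 0.9922). For Hmox1 they were Nos2 (r = 0.9947), Mxi1 (r = 0.9943) and Gm10722 (r = 0.993). The points are 4 groups of 3 libraries of the same table, so these values describe the group pattern and carry no p.

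Because Tfrc and Hmox1 changed with culture and with Hif1a or Myc, RefSeq promoters (GRCm38.p6, 250 bases before to 50 after a start) were read for CACGTG, for ACGTG, for GCGTG and for TGACNNNGC on both strands, where CACGTG also contains ACGTG. These letters occurred in 7.15%, 19.6%, 32.4% and 12.4% of 32851 promoters. Windows were at hand for Tfrc, Fth1, Ftl1, Steap3, Ireb2 and Ncoa4, and none for Hmox1, Trf, Slc40a1 or Slc11a2. Both Tfrc windows held 1 ACGTG and 2 GCGTG and neither held CACGTG. These windows overlap and share the same ACGTG site, which runs past the end of the bases printed below. The 250 bases before the first start of Tfrc, which like Ftl1 and Hmox1 was called higher with both transgenes, are shown with the complete GCGTG matches, here on the opposite strand as CACGC, in capitals.
Tfrc, chr16:32608646-32608895, plus strand: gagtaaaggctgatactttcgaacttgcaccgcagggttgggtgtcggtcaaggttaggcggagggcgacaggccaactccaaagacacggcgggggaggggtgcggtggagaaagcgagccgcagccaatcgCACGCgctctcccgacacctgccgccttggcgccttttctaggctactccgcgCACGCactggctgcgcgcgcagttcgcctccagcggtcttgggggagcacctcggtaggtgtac
Ftl1 held GCGTG in its window, and Fth1 and Steap3 held it in 1 of 2 and in 1 of 4 windows. Ncoa4 held ACGTG and GCGTG in 2 of 3 windows and, in 1 of these, TGACNNNGC, which no other member's window held, and Ireb2 held none of the letters searched. These matches are descriptions of short windows and say nothing of binding in these cells.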

How the data were processed

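Panc02 RNA was sequenced from 31 samples in 3 tables. Total RNA was harvested with Tri Reagent, and stranded libraries (TruSeq Stranded Total RNA, Gold) were read as pairs on a NovaSeq. The authors aligned reads with HISAT2 (mm10, GRCm38) and deposited whole-number gene counts estimated by StringTie, not normalized and not pooled over replicates. The aligner's and counter's versions, the annotation release and the strand setting are not given in the sources used here, so reads of a gene and an overlapping or antisense neighbour may not be separated. The labels of the rescue samples give cell line names with numbers that increase along the samples, and Panc02 was taken from the study's methods.

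Each table was fitted apart with edgeR 4.0.16 in R 4.3.3: filterByExpr by group (minimum count 10), TMM factors, glmQLFit over all groups of the table, glmQLFTest, and Benjamini-Hochberg adjustment over all genes tested, with a call at an adjusted p under 0.05. Standard errors of log2 fold changes were computed as the absolute change over the root of F, and log2 fold changes used edgeR's prior count of 0.125. Levels are CPM of the TMM-scaled library. Ratios of counts were compared with two-sided exact permutation tests. The tests were tried on simulated counts first. Each result was recomputed with DESeq2 1.42.0 (Wald test), with TMM replaced by DESeq2's size factors or by library totals, without a filter or with a minimum of 10 counts in all samples, on the compared groups alone, with a replicate block, and without each sample in turn. Further alternatives were rows of one symbol summed, a further limit on the fold change for conditioned media, and Ftl1 as the denominator. Pseudogenes that share reads were counted as deposited.

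The members, the 7 further lists and the marker lists were chosen with earlier results of these data known, and 1 marker list is not reported here. Genes named from the further lists were the 2 with the largest change in each direction per comparison among those called, with groups that do not overlap and a mean count of at least 50. The genes most like Tfrc and Hmox1 were the 3 with the highest Pearson r of log2(CPM + 1) over genes of a mean of at least 5 CPM. Depth ran from 41542533 to 78498230 counts per sample, and limits for a count of 0 (3 counts) cover counting error only. Figures were drawn with matplotlib 3.10.9. Columns of values that match no sample numbered 0.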

Additional observations from a re-analysis of the deposited data

Results flagged for a closer look

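The effect of the Cxcl5 knockout in 3D minus that in 2D differed from 0 by edgeR's quasi-likelihood test for 5 of the 9 members tested, beside 11.1% of all genes called higher and 16.1% lower. On the log2 scale it was 0.50 for Fth1 (adjusted p = 0.0156), 2.02 for Slc40a1 (adjusted p = 6.63e-07), 2.17 for Steap3 (adjusted p = 7.55e-05), -0.43 for Ncoa4 (adjusted p = 0.0232) and -1.49 for Hmox1 (adjusted p = 3.76e-06). The Fth1 call was lost without 2D WT sample 2 or 3 (adjusted p = 0.0513 and 0.0586). The Ncoa4 call was lost without sample 1 of 2D Cxcl5-/- (adjusted p = 0.104) or sample 2 of the libraries labelled 3D Cxcl5-/- (adjusted p = 0.0771), with library totals (-0.07, adjusted p = 0.733) and with no filter on low counts (-0.34, adjusted p = 0.173). Steap3 changed sign, lower in the knockout in 2D and higher in 3D.

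Tfrc differed in sign between the tables for the knockout against WT in 3D: every knockout library lay below every WT library in the rescue table (-0.49 on the log2 scale), and every one lay above in the other 3D libraries (0.15). The value of 0.15 was not called (edgeR adjusted p = 0.14), and the nearest samples of its groups stood at almost the same level. The value of -0.49 (edgeR adjusted p = 0.00543) rested on 2 samples per group and ranged from -0.57 to -0.41 without each library in turn. The difference between the tables was not tested.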

How the results depend on the processing

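Over the members, 1451 values under another setting or without 1 library kept their direction and side of the threshold, 49 lost a call, 27 gained one and 73 changed sign. Library totals in place of TMM changed most, since they moved the median of all genes in 3D comparisons. With them Ncoa4 in the knockout against WT in 3D was 0.14, Ncoa4 with M1-CM against M0-CM 0.0214, Slc11a2 with Myc against the knockout -0.33 and Fth1 -0.11, and Ncoa4 and Ireb2 with Myc against Hif1a -0.0056 and -0.0912. Called genes higher of all called went from 50.2 to 34.7% for 3D against 2D in WT, from 40.9 to 77.1% for the interaction, from 57.8 to 43.6% with Hif1a, from 54.6 to 36.3% with Myc and from 49.5 to 36.1% for Myc against Hif1a.

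Signs of values near 0 changed under other settings. Ireb2 in 3D against 2D WT was 0.0268 by the DESeq2 Wald test and with DESeq2 size factors. Ftl1 with M0-CM against Ctrl, 0.00 in the report, was -0.0127 under both, -0.0635 with library totals, -0.0011 with no filter, -0.0016 with 10 counts in every sample and -0.0025 with only the groups compared. Slc11a2 with Myc was -0.0236 by DESeq2, -0.0237 with its size factors and -0.0661 with 10 counts in every sample. With Ftl1 in place of Fth1 the Tfrc log2 ratio differed by -0.26 for 3D against 2D in Cxcl5-/-, and for the knockout by 0.12 in 2D, 0.65 in 3D and 0.37 in the rescue libraries, and by -0.0719 with Hif1a and -0.21 with Myc.

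Genes called over a whole table also moved. M1-CM against Ctrl gave 97 by DESeq2, M0-CM against Ctrl 17 by DESeq2, 1 with library totals and 2 with only the groups compared, and M1-CM against M0-CM 32 by DESeq2 and 1 with 10 counts in every sample. DESeq2 called 5 members for Myc against Hif1a. Deviations of same-numbered samples had a mean r of 0.0872, 0.0409 and 0.0201 in the 3 tables (single pairs from -0.389 to 0.584), so the numbers were not taken to pair samples. With the replicate block the M1-CM comparisons gave 1 gene each, Fth1 with Hif1a was 8e-04 and Slc11a2 with Myc -0.0154, Ftl1 was called in 3D against 2D WT (-0.31), for the interaction (-0.51) and for Myc against Hif1a (0.34), Ncoa4 was called with Hif1a (0.28), and Slc11a2 lost its call in the rescue knockout (0.26).

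Without each library in turn, the genes called ranged from 1 to 5 for M1-CM against Ctrl, from 1 to 6 for M1-CM against M0-CM and from 7487 to 7908 for the rescue knockout, and the members called from 1 to 2 for the knockout in 2D, 3 to 6 with Myc and 3 to 5 for Myc against Hif1a. Log2 values whose sign changed ranged, for M1-CM against Ctrl, from -0.62 to 0.25 (Steap3), -0.0178 to 0.69 (Ireb2) and -0.0293 to 0.16 (Ncoa4), for M0-CM against Ctrl from -0.0205 to 0.15 (Tfrc), -0.12 to 0.0608 (Fth1), -0.11 to 0.12 (Ftl1), -0.13 to 0.0393 (Slc11a2), -0.23 to 0.17 (Steap3) and -0.39 to 0.36 (Ireb2), and for M1-CM against M0-CM from -0.61 to 0.25 (Steap3), -0.14 to 0.0513 (Ncoa4) and -0.19 to 0.26 (Hmox1). They ranged from -0.14 to 0.19 (Ireb2, 3D against 2D WT), -0.0239 to 0.12 (Fth1, 3D against 2D Cxcl5-/-), -0.0702 to 0.13 (Ftl1), -0.0443 to 0.0525 (Slc11a2) and -0.17 to 0.15 (Ireb2) for the knockout in 2D, -0.0136 to 0.14 (Slc11a2) for it in 3D, and -0.0709 to 0.10 (Tfrc), -0.0048 to 0.18 (Slc11a2) and -0.0557 to 0.31 (Ireb2) for the interaction. In the rescue libraries they ranged from -1.47 to 1.53 (Trf, knockout), -0.21 to 0.0096 (Fth1, Hif1a), -0.26 to 2.13 (Trf, Myc), -0.0181 to 0.0453 (Slc11a2, Myc) and -0.0541 to 0.13 (Ireb2, Myc against Hif1a), and the Tfrc to Fth1 log2 ratio from -0.0887 to 0.0875 (knockout, 2D) and -0.31 to 0.0449 (Myc against Hif1a).

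None of these causes was tested. Groups of 2 or 3 samples give ratios no p under 0.1, and depth limits only Trf.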
